A study of Mus musculus with 24 samples.

Results

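Cx3cl1 and Cx3cr1, the genes of the chemokine fractalkine and of its receptor, were followed through 24 mouse brain samples of 7 groups, measured on a neuroinflammation panel whose barcoded probes count RNA molecules without amplification. They are 2 of the 757 probes of the deposited table, each with 1 probe, and were picked by gene symbol. The pair was picked with results of these samples already known, among them the low Cx3cl1 of 1 vesicle-treated group, so the levels of both genes across groups are given as a description, without a test. The samples came from male C57BL/6J mice aged 27 weeks. The study as a whole used mice of both sexes, and its text does not give the sex of the mice behind the panel. In the study, mice with or without an implanted CT2A glioma received cranial irradiation with temozolomide (RT-TMZ), followed by extracellular vesicles (EVs) from human neural stem cells or by vehicle. The 4 EV groups had 3 samples each. They were CT2A + RT-TMZ + UCI-191 EV and, with the other vesicles, CT2A + RT-TMZ + Shef6 EV, besides the tumor-free RT-TMZ + UCI-191 EV and RT-TMZ + Shef6 EV. CT2A + RT-TMZ + Veh, RT-TMZ + Veh and Control + Veh had 4 samples each. Control + Veh mice had neither tumor nor RT-TMZ. Every RT-TMZ mouse was labelled as having had 3 fractions of 9 Gy, temozolomide at 25 mg/kg during irradiation and temozolomide at 66.7 mg/kg afterwards. CT2A is a mouse glioma line, placed stereotaxically into the brain of immunocompetent mice of its own strain, and each EV type came from 1 human cell line, Shef6 or UCI-191. EVs, or buffer as vehicle, were injected 4 times into the retro-orbital sinus at weekly intervals. The labels give the tissue as brain and the study's own text names the hippocampus or the hippocampus with the prefrontal cortex, so the dissected region is not settled here.

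Fractalkine is a chemokine that neurons make in the adult brain as a protein tethered to the cell membrane, with the chemokine domain carried on a mucin stalk. Proteases can shed it as a soluble ligand. Its receptor CX3CR1 is a G protein-coupled receptor that, within brain tissue, is carried by microglia, and that circulating monocytes carry as well. Signaling from the neuronal ligand to the microglial receptor is known for restraining microglial activation and for microglial contact with synapses, which makes the pair a neuron-to-microglia axis in irradiated and tumor-bearing brain.

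The sequences just before the annotated starts of both genes are shown because ligand and receptor are made by different cells and moved differently across the groups. They come from RefSeq on build GRCm38.p6, 5′ to 3′ on each gene's own strand, as the 120 bases that end at the base before the annotated start. Cx3cl1 lies on the plus strand at chr8:94772060-94772179 and Cx3cr1 on the minus strand at chr9:120068297-120068416. Capitals mark matches to the GC box motif GGGCGG and to the core promoter motif TATAAA. Both were searched on both strands, and the matches do not overlap each other.
Cx3cl1: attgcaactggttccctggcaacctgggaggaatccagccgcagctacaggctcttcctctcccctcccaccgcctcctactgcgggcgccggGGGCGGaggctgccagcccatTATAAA
Cx3cr1: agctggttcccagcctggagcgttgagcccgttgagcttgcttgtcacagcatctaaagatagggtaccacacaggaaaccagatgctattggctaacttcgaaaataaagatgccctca
The Cx3cl1 window had 64.2% GC, with GGGCGG at 27 to 22 bases and TATAAA at 6 to 1 bases before the start, both on the gene's strand. The Cx3cr1 window had 49.2% GC and neither motif. Among all 32851 windows of the same length, 26.5% held GGGCGG and 6.34% held TATAAA, and the median GC content was 54.2%. A match is a description of the letters only.

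The deposited values are log2 counts that the authors normalized to positive controls and to reference genes, and "level" means this log2 value throughout. The normalized counts of a sample summed to between 1158026 and 1278195 over the panel. The low values of each sample fell on whole counts after division by 1 scaling factor, which gave the count before scaling. This factor was 1.32 to 1.42 in the 4 CT2A + RT-TMZ + Veh samples and averaged 0.889 to 1.07 in the other groups, and the implied totals before scaling ran from 861869 to 1477385. The samples of CT2A + RT-TMZ + Veh also stood apart in blood vessel genes. Their summed counts over 8 endothelial markers were 1964 to 2467, against 3246 to 4692 in the samples of all other groups. The panel's microglial and neuronal markers were all above background, which was set at 20 normalized counts (log2 4.32), so the label of brain tissue was met. Counts over 10 microglial markers summed to 6913 to 9914 per sample, over 15 neuronal markers to 94813 to 123830, over 3 monocyte and macrophage markers to 71.0 to 151, with Ccr2 under background, and over 11 T and NK cell markers to 117 to 239, with 10 of these under background. Ttr, the marker of choroid plexus, ran from 39.7 to 29738 normalized counts between samples, also within groups. In bulk tissue, fewer cells of a type and less RNA per cell cannot be told apart, which holds for every level below.

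Cx3cl1 was an abundant transcript. Its level ranked 84th of 757 probes by the median over samples, 11.78 (11.16 to 12.40, or 2288 to 5405 normalized counts). In CT2A + RT-TMZ + UCI-191 EV it was 11.65, 11.86 and 12.10. In CT2A + RT-TMZ + Shef6 EV it was 11.16, 11.35 and 11.37. In CT2A + RT-TMZ + Veh it was 11.90, 12.40, 12.01 and 11.87. All 3 Shef6 EV values of tumor-bearing mice thus lay below every value of the other tumor-bearing groups, and the highest sample of the series was replicate 2 of CT2A + RT-TMZ + Veh. In the tumor-free groups it was 11.52, 11.49 and 11.45 in RT-TMZ + UCI-191 EV and 11.93, 11.99 and 11.59 in RT-TMZ + Shef6 EV. It was 11.79, 11.62, 11.53 and 11.63 in RT-TMZ + Veh. In Control + Veh it was 11.84, 11.79, 11.85 and 11.76. RT-TMZ + UCI-191 EV was low and tight, and RT-TMZ + Shef6 EV had 1 low sample, replicate 3.

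The order of the Cx3cl1 group means, from high to low, was CT2A + RT-TMZ + Veh (12.05 ± 0.24, SD, n = 4), CT2A + RT-TMZ + UCI-191 EV (11.87 ± 0.23, n = 3), RT-TMZ + Shef6 EV (11.84 ± 0.22, n = 3), Control + Veh (11.81 ± 0.042, n = 4), RT-TMZ + Veh (11.64 ± 0.11, n = 4), RT-TMZ + UCI-191 EV (11.49 ± 0.035, n = 3) and CT2A + RT-TMZ + Shef6 EV (11.29 ± 0.12, n = 3). Neighbors in this order overlapped in their samples down to RT-TMZ + Veh. RT-TMZ + UCI-191 EV lay below RT-TMZ + Veh without overlap, and CT2A + RT-TMZ + Shef6 EV lay below RT-TMZ + UCI-191 EV without overlap. The means spanned 0.75 on the log2 scale, against a spread within groups of 0.16 (pooled SD).

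**Figure D1:**
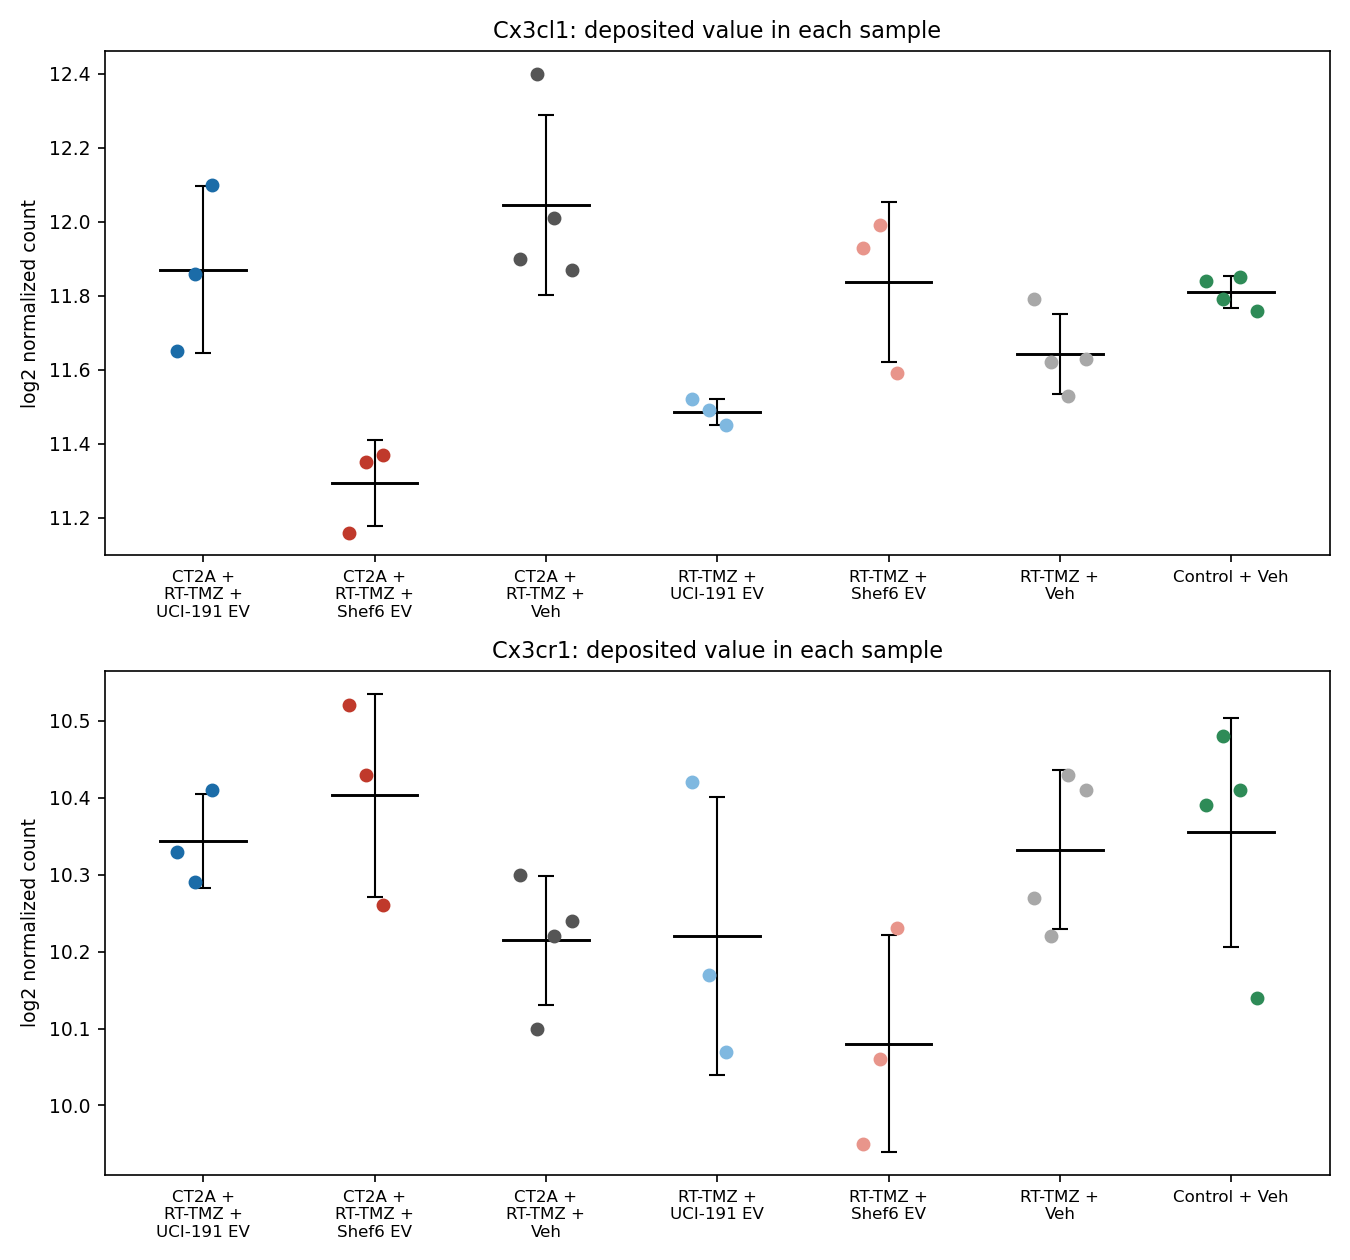
Deposited log2 level of Cx3cl1 and Cx3cr1 in each of 24 samples, by group (points, samples; bars, group mean and SD). Cx3cl1 was lowest in CT2A + RT-TMZ + Shef6 EV (11.16 to 11.37), while the Cx3cr1 samples of all groups lay between 9.95 and 10.52.

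Among tumor-bearing mice, Cx3cl1 was lower in CT2A + RT-TMZ + Shef6 EV than in the CT2A + RT-TMZ + Veh group, by −0.75 on the log2 scale (SE 0.14), a fold of 0.594, and the groups did not overlap. This was the 7th lowest difference of 757 probes in that comparison, in which 31.7% of probes did not overlap between the groups. Cx3cl1 in CT2A + RT-TMZ + UCI-191 EV differed from CT2A + RT-TMZ + Veh by −0.175 (SE 0.16) with overlap, and 24.6% of probes did not overlap there. Between the EV types, CT2A + RT-TMZ + UCI-191 EV was 0.58 higher than CT2A + RT-TMZ + Shef6 EV (SE 0.12) without overlap, against 34.5% of probes without overlap. Endothelial markers moved in both comparisons with vehicle. Of 8, 7 rose in CT2A + RT-TMZ + Shef6 EV and 4 rose in CT2A + RT-TMZ + UCI-191 EV against CT2A + RT-TMZ + Veh, while none of the 10 microglial or 15 neuronal markers passed the test in either. With Shef6 EV, though, 11 neuronal markers were below 0 and 4 above. Their median was −0.21, against 0.105 over all probes. By limma at an unadjusted p under 0.05, 4 neuronal markers were lower and 2 higher there, while 68 of all 757 probes were lower and 154 higher. Between the EV types, 4 of the 15 neuronal markers rose in CT2A + RT-TMZ + UCI-191 EV relative to CT2A + RT-TMZ + Shef6 EV, and none of the endothelial or microglial markers passed. Over all 757 probes, 31 rose and 19 fell. The neuronal markers went both ways, with 10 above 0 and 5 below, from −0.78 to 1.81. At an unadjusted p under 0.05 by limma, 7 of them were higher and 5 lower, against 90 and 112 of all probes. The part of these markers in the Cx3cl1 differences was not tested.

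In tumor-free mice the 2 EV types lay on opposite sides of the vehicle group. Cx3cl1 in RT-TMZ + Shef6 EV was 0.19 above RT-TMZ + Veh (SE 0.11) with overlap, in a comparison where 10.3% of probes did not overlap. RT-TMZ + UCI-191 EV was below RT-TMZ + Veh (−0.16, SE 0.061) without overlap, against 6.61% of probes. On counts before scaling these groups overlapped, with a gap of 0.095 between their means. None of the 15 neuronal markers passed in this comparison, though 13 were below 0 (median −0.08, against −0.0067 over all probes). Their part was not tested. RT-TMZ + UCI-191 EV was also below RT-TMZ + Shef6 EV (−0.35, SE 0.11) without overlap, against 14.9% of probes.

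With the same EVs, tumor-bearing and tumor-free mice differed in Cx3cl1 in opposite directions. CT2A + RT-TMZ + Shef6 EV was below RT-TMZ + Shef6 EV (−0.54, SE 0.12), the 14th lowest difference of 757, without overlap, against 18.2% of probes. CT2A + RT-TMZ + UCI-191 EV was above RT-TMZ + UCI-191 EV (0.38, SE 0.11) without overlap, against 39.6% of probes. In that comparison 4 of the 15 neuronal markers rose as well, among them Mef2c (1.78), Tbr1 (1.19) and Gria4 (0.63), and 4 of the 10 microglial markers fell. Both lists went both ways. Of the neuronal markers 5 were below 0, down to −0.67, and the list median was 0.14. Of the microglial markers 5 were above 0. The part of these markers was not tested. With vehicle, CT2A + RT-TMZ + Veh was above RT-TMZ + Veh (0.40, SE 0.12) without overlap, the 24th highest difference, against 21.1% of probes, although its sign turned on counts before scaling (−0.16). There 6 of 8 endothelial and 3 of 5 astrocyte markers fell, and no neuronal marker passed. The Shef6 EV effect in tumor-bearing mice minus that in tumor-free mice was −0.95 (SE 0.18), and the same contrast for UCI-191 EV was −0.02 (SE 0.18), both given as values without a test. The Shef6 EV contrast of Cx3cl1 kept its sign, at −1.29 after median centering and −0.54 on counts before scaling. For Cx3cr1 the same contrast was 0.44 (SE 0.13) with Shef6 EV and 0.24 (SE 0.12) with UCI-191 EV, and after median centering 0.10 and 0.13.

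Set against Control + Veh, whose 4 samples enter each of these differences, Cx3cl1 was lower without overlap in CT2A + RT-TMZ + Shef6 EV (−0.52, SE 0.058) and in RT-TMZ + UCI-191 EV (−0.32, SE 0.037). It was higher without overlap in CT2A + RT-TMZ + Veh (0.24, SE 0.11), although this value was −0.38 on counts before scaling. It overlapped in CT2A + RT-TMZ + UCI-191 EV (0.06), in RT-TMZ + Shef6 EV (0.03) and in RT-TMZ + Veh (−0.17, SE 0.055). The share of probes without overlap against Control + Veh was 30.6% for CT2A + RT-TMZ + Shef6 EV, 32.1% for RT-TMZ + UCI-191 EV, 28.5% for CT2A + RT-TMZ + Veh, 29.7% for CT2A + RT-TMZ + UCI-191 EV, 18.6% for RT-TMZ + Shef6 EV and 21.8% for RT-TMZ + Veh. Of the 15 neuronal markers, 2 fell in CT2A + RT-TMZ + Shef6 EV, 2 fell in RT-TMZ + UCI-191 EV, 1 rose and 2 fell in CT2A + RT-TMZ + Veh, 2 rose in CT2A + RT-TMZ + UCI-191 EV and 1 fell in RT-TMZ + Veh, while none passed in RT-TMZ + Shef6 EV. Their part was not tested. With shares of this size, a lack of overlap alone did not set Cx3cl1 apart from the rest of the panel.

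Cx3cr1 varied less than its ligand on the deposited scale. Its median level was 10.28 (9.95 to 10.52, or 989 to 1468 normalized counts), rank 189 of 757. It was 10.33, 10.29 and 10.41 in CT2A + RT-TMZ + UCI-191 EV, 10.52, 10.43 and 10.26 in CT2A + RT-TMZ + Shef6 EV, and 10.30, 10.10, 10.22 and 10.24 in CT2A + RT-TMZ + Veh. In tumor-free mice it was 10.42, 10.17 and 10.07 in RT-TMZ + UCI-191 EV, 9.95, 10.06 and 10.23 in RT-TMZ + Shef6 EV, and 10.27, 10.22, 10.43 and 10.41 in RT-TMZ + Veh. Control + Veh had 10.39, 10.48, 10.41 and 10.14. The lowest value of the series was in RT-TMZ + Shef6 EV and the highest in CT2A + RT-TMZ + Shef6 EV.

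The order of the Cx3cr1 means was CT2A + RT-TMZ + Shef6 EV (10.40 ± 0.13), Control + Veh (10.36 ± 0.15), CT2A + RT-TMZ + UCI-191 EV (10.34 ± 0.061), RT-TMZ + Veh (10.33 ± 0.10), RT-TMZ + UCI-191 EV (10.22 ± 0.18), then CT2A + RT-TMZ + Veh (10.22 ± 0.084) and RT-TMZ + Shef6 EV (10.08 ± 0.14), and all neighbors in it overlapped. The means spanned 0.32, against a pooled SD within groups of 0.13. On counts before scaling the spans of both genes were alike, with Cx3cr1 means from 9.76 to 10.52 and Cx3cl1 means from 11.20 to 11.98. Of the 15 differences computed between groups, 1 was without overlap. Cx3cr1 was higher in CT2A + RT-TMZ + Shef6 EV than in RT-TMZ + Shef6 EV (0.32, SE 0.099), rank 93 from the top of 757 in that comparison, where 18.2% of probes did not overlap. Against their own vehicle groups, Cx3cr1 differed by 0.19 (SE 0.097) in CT2A + RT-TMZ + Shef6 EV, 0.13 (SE 0.086) in CT2A + RT-TMZ + UCI-191 EV, −0.25 (SE 0.086) in RT-TMZ + Shef6 EV and −0.11 (SE 0.091) in RT-TMZ + UCI-191 EV, all with overlap. The first 2 turned sign after median centering (−0.10 and −0.063) and were 0.55 and 0.52 on counts before scaling. CT2A + RT-TMZ + Veh differed by −0.12 (SE 0.080) from RT-TMZ + Veh and by −0.14 (SE 0.090) from Control + Veh, which median centering turned to 0.15 and 0.075. RT-TMZ + Veh differed by −0.02 (SE 0.081) from Control + Veh.

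The scaling factors of CT2A + RT-TMZ + Veh bear on every difference that uses this group. Taken as counts before scaling, the median of all 757 probes differed by −0.70 between CT2A + RT-TMZ + Veh and RT-TMZ + Veh, against −0.14 as deposited. The Cx3cl1 difference between CT2A + RT-TMZ + Veh and RT-TMZ + Veh was −0.16 on these counts, 0.67 with each sample centered on its median and 0.40 as deposited, so its sign turned with the scaling. Cx3cl1 in CT2A + RT-TMZ + Shef6 EV against CT2A + RT-TMZ + Veh kept its sign, at −0.39 on counts before scaling and −1.04 after median centering. Cx3cl1 in CT2A + RT-TMZ + UCI-191 EV against CT2A + RT-TMZ + Veh was 0.21 on counts before scaling and turned sign. Cx3cr1 was lowest of all groups in CT2A + RT-TMZ + Veh on counts before scaling and highest there after median centering. The order of Cx3cl1 on counts before scaling began with Control + Veh and again ended with CT2A + RT-TMZ + Shef6 EV, 0.39 below the next group and without overlap.

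**Figure D2:**
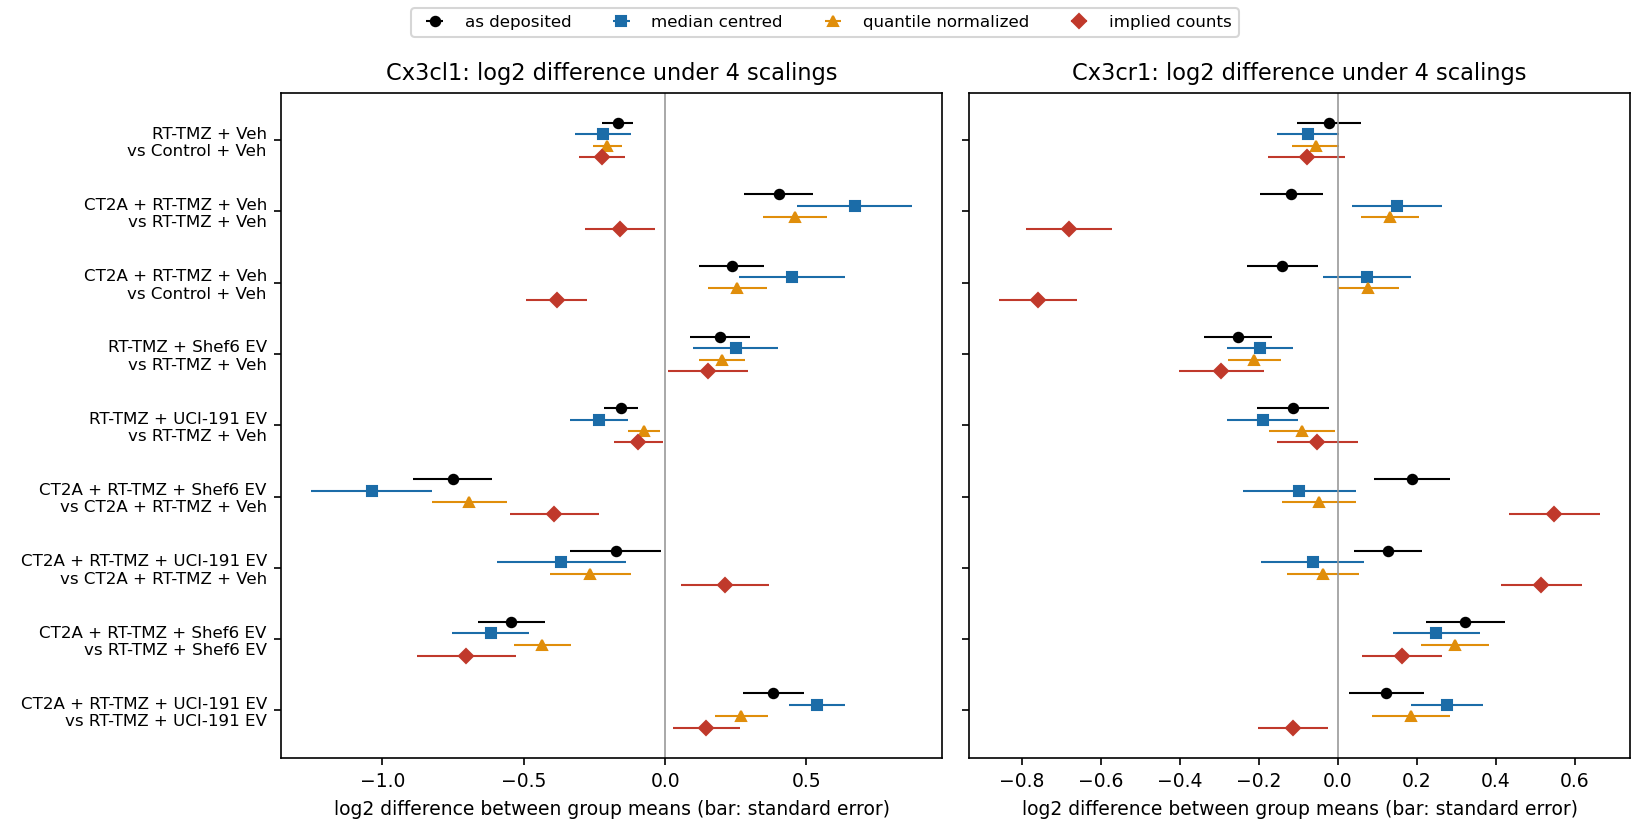
Log2 difference of Cx3cl1 and Cx3cr1 (points; bars, standard error) for the 9 comparisons, under the deposited normalization, median centering, quantile normalization and the counts before scaling. The comparisons that use CT2A + RT-TMZ + Veh spread most, and Cx3cl1 in CT2A + RT-TMZ + Shef6 EV stayed below CT2A + RT-TMZ + Veh, from −0.39 to −1.04.

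Differences between genes within a sample do not depend on its scaling factor, and 3 such differences were chosen with the values in view. The share of other probes without overlap in such differences was not computed. A lack of overlap in them thus does not set either gene apart from the panel. Cx3cl1 minus Cx3cr1 was 0.89 ± 0.24 in CT2A + RT-TMZ + Shef6 EV (0.64 to 1.11, n = 3), against 1.83 ± 0.32 in CT2A + RT-TMZ + Veh (1.60 to 2.30, n = 4), and 1.46 ± 0.13 in Control + Veh (1.31 to 1.62, n = 4). It averaged 1.53 ± 0.19 in CT2A + RT-TMZ + UCI-191 EV, 1.27 ± 0.15 in RT-TMZ + UCI-191 EV, 1.76 ± 0.34 in RT-TMZ + Shef6 EV and 1.31 ± 0.19 in RT-TMZ + Veh. The lowest was thus CT2A + RT-TMZ + Shef6 EV, without overlap with CT2A + RT-TMZ + Veh (−0.94, SE 0.21), RT-TMZ + Shef6 EV (−0.87, SE 0.24) or Control + Veh (−0.565, SE 0.15), or with CT2A + RT-TMZ + UCI-191 EV. It overlapped, by its highest sample of 1.11, with RT-TMZ + Veh and RT-TMZ + UCI-191 EV, each of which reached down to 1.10. CT2A + RT-TMZ + Veh was above RT-TMZ + Veh by 0.52 (SE 0.19) without overlap, and overlapped with Control + Veh.

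Cx3cl1 minus the mean level of the 15 neuronal markers placed the same groups at the ends. It was −0.29 ± 0.11 in CT2A + RT-TMZ + Shef6 EV and 0.34 ± 0.092 in CT2A + RT-TMZ + Veh, with 0.21 as the lowest sample of CT2A + RT-TMZ + Veh. In CT2A + RT-TMZ + UCI-191 EV it was −0.05 ± 0.24, in RT-TMZ + UCI-191 EV −0.12 ± 0.089, in RT-TMZ + Shef6 EV −0.03 ± 0.092 and in RT-TMZ + Veh −0.05 ± 0.074. CT2A + RT-TMZ + Veh was higher without overlap compared to RT-TMZ + Veh (0.39, SE 0.059) and Control + Veh (0.34, SE 0.055). CT2A + RT-TMZ + Shef6 EV was lower without overlap compared to CT2A + RT-TMZ + Veh (−0.63, SE 0.079), RT-TMZ + Shef6 EV (−0.26, SE 0.083) and Control + Veh (−0.29, SE 0.071), and it overlapped with CT2A + RT-TMZ + UCI-191 EV. Relative to the mean of this list, Cx3cl1 was thus low in CT2A + RT-TMZ + Shef6 EV and high in CT2A + RT-TMZ + Veh. The low level was not particular to Cx3cl1. Among the genes named below as most like it, Map1lc3a had a mean of 11.45 in CT2A + RT-TMZ + Shef6 EV, against 12.13 in CT2A + RT-TMZ + Veh. Lingo1 had 10.74 against 11.32 and Clstn1 10.87 against 11.45.

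Cx3cr1 minus the mean level of the 10 microglial markers was 0.94 ± 0.059 in CT2A + RT-TMZ + UCI-191 EV and 0.90 ± 0.073 in CT2A + RT-TMZ + Shef6 EV, both without overlap above the 0.68 ± 0.084 of CT2A + RT-TMZ + Veh (0.26, SE 0.054, and 0.22, SE 0.059). Both were also above the tumor-free group given the same EVs, where it was 0.74 ± 0.14 in RT-TMZ + UCI-191 EV and 0.70 ± 0.042 in RT-TMZ + Shef6 EV, by 0.20 (SE 0.088) and 0.20 (SE 0.049). RT-TMZ + Veh had 0.72 ± 0.0058 and Control + Veh 0.83 ± 0.073. Of single probes as deposited, 24.6% did not overlap between CT2A + RT-TMZ + UCI-191 EV and CT2A + RT-TMZ + Veh. For CT2A + RT-TMZ + Shef6 EV against the same vehicle group it was 31.7%. None of the 10 microglial markers passed the test for either EV type against CT2A + RT-TMZ + Veh, or for Shef6 EV between tumor-bearing and tumor-free mice. For UCI-191 EV between tumor-bearing and tumor-free mice 4 of them fell, among them Csf1r (−0.36), C1qa (−0.36) and Tyrobp (−0.29), while 5 of the 10 were above 0, up to 0.31. The mean of the 10 markers was 9.41 in CT2A + RT-TMZ + UCI-191 EV and 9.48 in RT-TMZ + UCI-191 EV. Cx3cr1 itself differed by 0.12 (SE 0.095) between these groups, with overlap. The part of the markers was not tested.

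**Figure D3:**
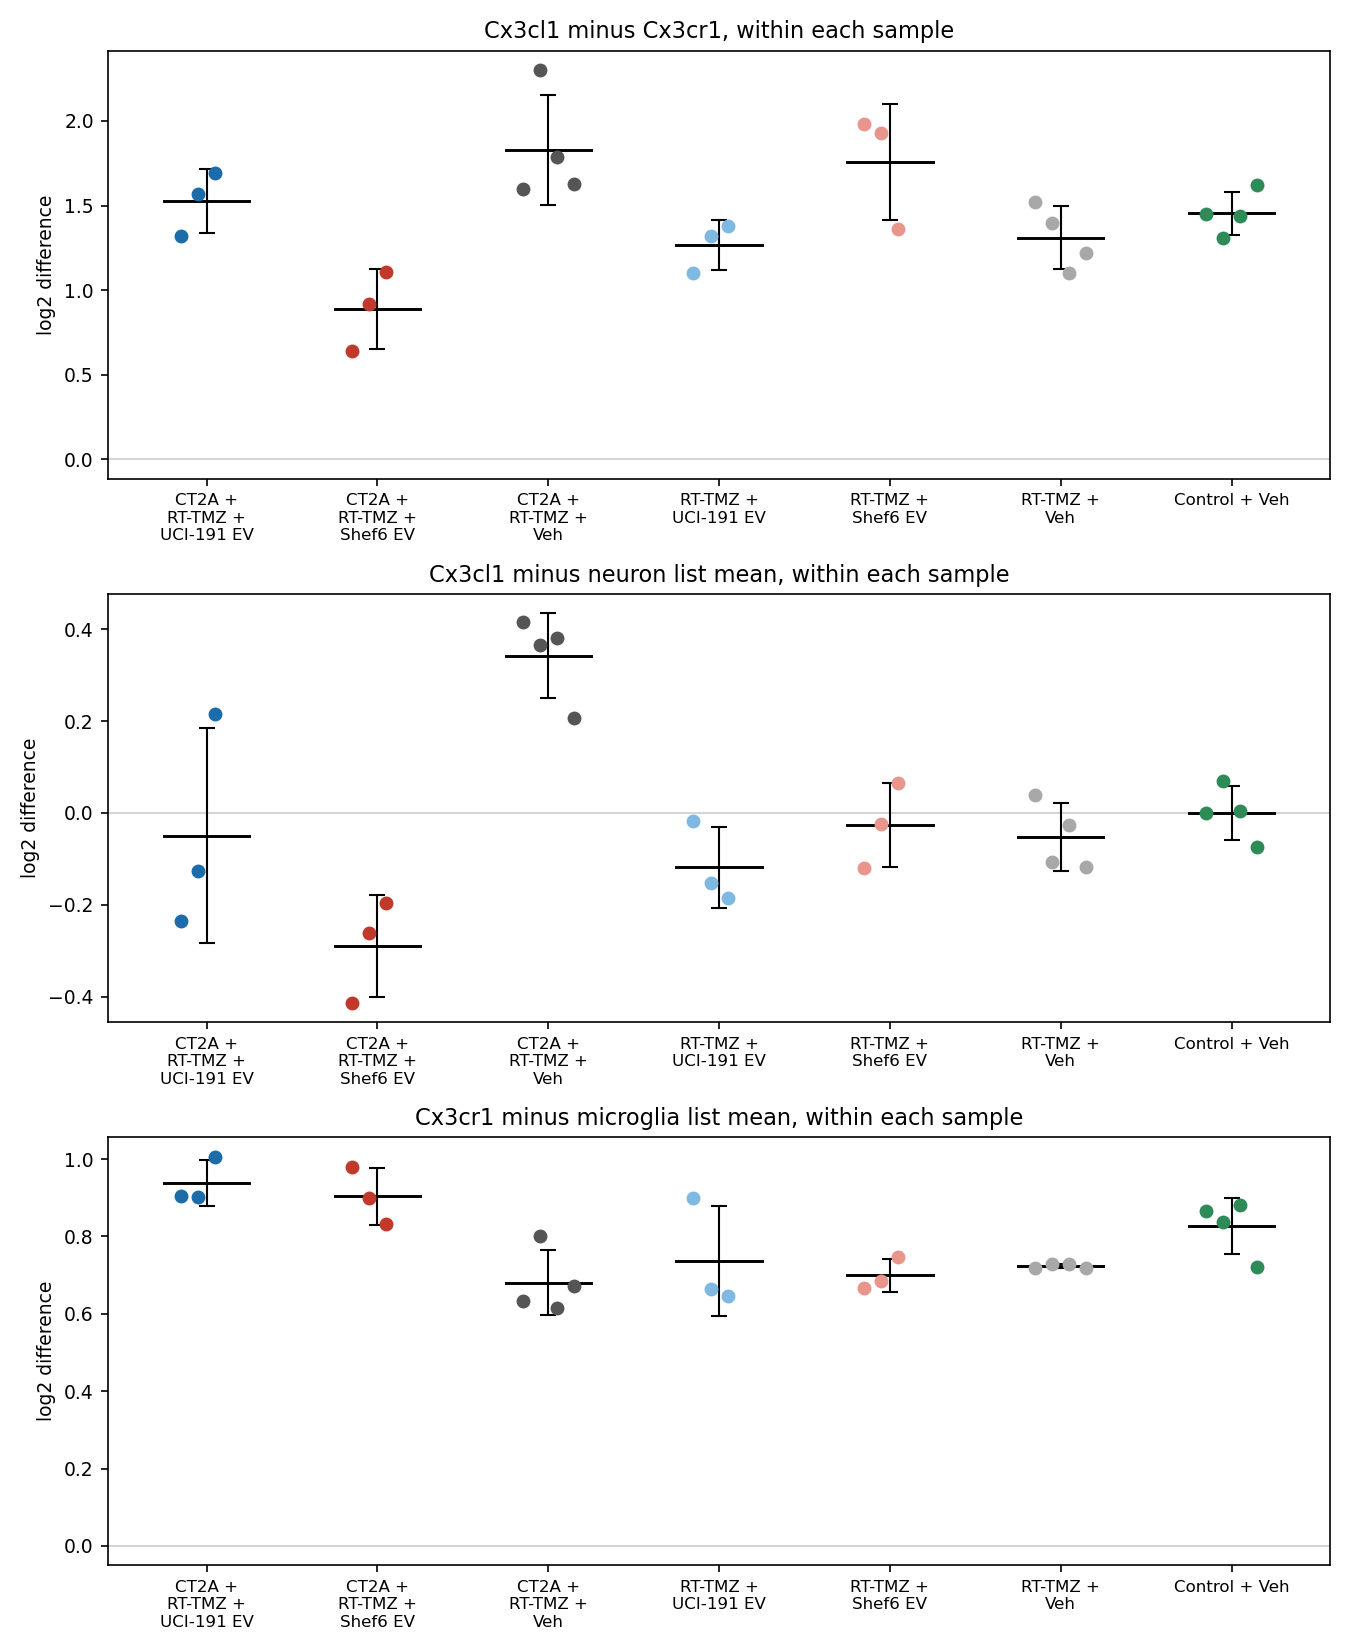
Within-sample log2 differences by group: Cx3cl1 minus Cx3cr1, Cx3cl1 minus the mean of 15 neuronal markers, and Cx3cr1 minus the mean of 10 microglial markers (points, samples; bars, mean and SD). CT2A + RT-TMZ + Shef6 EV was lowest and CT2A + RT-TMZ + Veh highest in the first 2, and in the last both tumor-bearing EV groups lay above CT2A + RT-TMZ + Veh.

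The genes around the pair were described from 4 lists, with 26 measured members: 2 of 7 for shedding and binding of fractalkine, 13 of 23 for signal transduction below the receptor, 6 of 8 for microglial cytokines that the receptor is known to restrain, and 5 of 10 for other ligands and receptors between neurons and microglia. They were tested gene by gene with limma, with Benjamini-Hochberg adjustment over 757 probes and a threshold of 0.05. The 20 calls named below kept their sign under the deposited, median-centered, quantile and unscaled values, in 20 of 20 cases.

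After RT-TMZ alone, 3 of the 26 genes rose and 1 fell in RT-TMZ + Veh against the Control + Veh group, in a comparison in which 17.8% of all probes passed. Csf1r, the receptor of the growth factor on which microglia depend, fell to 9.44 ± 0.11 in RT-TMZ + Veh, against 9.99 ± 0.096 in Control + Veh (log2 difference −0.56, SE 0.069, adjusted p = 0.00116). Csf1r also belongs to the microglial marker list. Csf1, a ligand of that receptor, rose by 0.23 (SE 0.062, adjusted p = 0.0343). Pik3cg, the phosphoinositide 3-kinase subunit coupled to G protein-coupled receptors, rose by 0.59 (SE 0.14, adjusted p = 0.0210), and Ccl2, a chemokine that attracts monocytes, by 1.28 (SE 0.38, adjusted p = 0.0470). The mean level of Ccl2 was 4.205 in Control + Veh, under background, and 5.485 in RT-TMZ + Veh, so the size of its rise is uncertain. All 6 measured cytokine genes had differences above 0, with a median of 0.32 against 0.05 over all probes, although only Ccl2 passed and 2 of the 6 were under background on average. The count fell to 1 without Control + Veh replicate 1 or RT-TMZ + Veh replicate 3 or 4, and to 2 without Control + Veh replicate 3. Of the microglial markers, 4 rose and 3 fell in the same comparison, and their part was not tested.

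In tumor-bearing mice given vehicle, few of the 26 genes passed, at a share near that of all probes. Compared to RT-TMZ + Veh, 3 fell in CT2A + RT-TMZ + Veh and none rose, against 10.6% of all probes. They were Pik3r1, a regulatory subunit of phosphoinositide 3-kinase, at 10.18 ± 0.31 against 10.77 ± 0.12 (−0.60, SE 0.15, adjusted p = 0.0432), Pik3ca, a catalytic subunit of the same kinase named after its values were seen (−0.38, adjusted p = 0.0451), and Tgfb1, a cytokine that sustains microglial identity (−0.49, SE 0.13, adjusted p = 0.0498). Compared to Control + Veh, 5 fell and none rose, against 21.1% of probes. Csf1r fell to 9.08 ± 0.18 in CT2A + RT-TMZ + Veh, against 9.99 ± 0.096 in Control + Veh (−0.91, SE 0.10, adjusted p = 0.00355), and Tgfbr1, a receptor of TGF-beta, fell by 0.74 (adjusted p = 0.0325), with Pik3r1 (−0.58, adjusted p = 0.0248), Pik3cb (−0.26, adjusted p = 0.0248) and Pik3ca (−0.38, adjusted p = 0.0327). The other measured subunits, Pik3cg (0.14), Pik3r2 (0.01) and Pik3r5 (0.08), had differences above 0 from Control + Veh and did not pass. In each of the 2 comparisons 6 of 8 endothelial and 3 of 5 astrocyte markers fell. Of the 10 microglial markers, to which Csf1r belongs, 3 rose against Control + Veh, Fcrls (0.66), Tyrobp (0.53) and C1qa (0.50), and 2 fell. The part of these markers was not tested. The 3 calls against RT-TMZ + Veh were all lost after median centering and by the methods' t-test, and against Control + Veh the counts were 3 and 1. Leaving out 1 library moved the first count to 0 without CT2A + RT-TMZ + Veh replicate 1 or 3 or RT-TMZ + Veh replicate 2, 3 or 4, to 1 without RT-TMZ + Veh replicate 1 and to 6 without CT2A + RT-TMZ + Veh replicate 4. It moved the second to 1 without CT2A + RT-TMZ + Veh replicate 3 or any 1 Control + Veh replicate, and to 3 without CT2A + RT-TMZ + Veh replicate 1.

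EVs changed few of these genes against their own vehicle groups. In RT-TMZ + Shef6 EV and in RT-TMZ + UCI-191 EV none of the 26 passed limma's test compared to RT-TMZ + Veh, and 0% of all probes did in either comparison. At an unadjusted p under 0.05, 1 gene was higher and 3 were lower with Shef6 EV and 0 with UCI-191 EV, and the methods' t-test, the test that the study's own methods name, called 0 in both after adjustment. Over all 757 probes the unadjusted counts were 20 higher and 72 lower with Shef6 EV, and 15 and 30 with UCI-191 EV. In CT2A + RT-TMZ + Shef6 EV against CT2A + RT-TMZ + Veh, none of 26 passed, with 5 higher at an unadjusted p under 0.05 and 0 by the methods' t-test after adjustment, while 5.02% of all probes passed. At that unadjusted p, 154 of all 757 probes were higher and 68 lower. In CT2A + RT-TMZ + UCI-191 EV against CT2A + RT-TMZ + Veh, where 1.45% of probes passed, Pik3r1 rose to 11.11 ± 0.082, against 10.18 ± 0.31 (0.93, SE 0.17, adjusted p = 0.0483), a call that was lost after median centering and by the methods' t-test. Itgav, an integrin subunit that can bind fractalkine and is named here after its values were seen, was 1.11 higher without overlap, with an adjusted p of 0.0621. At the exploratory threshold of the methods, an absolute log2 difference over 0.2 and an adjusted p under 0.5, the methods' t-test took 11 of the 26 genes as higher and 1 as lower for Shef6 EV in tumor-bearing mice, and 8 as higher and 3 as lower for UCI-191 EV. Of all 757 probes it took 269 as higher and 116 as lower for Shef6 EV there, and 230 and 130 for UCI-191 EV. These counts thus do not set the 26 genes apart from the panel. In tumor-free mice it took 0 of the 26 as higher and 1 as lower for Shef6 EV, while UCI-191 EV had 0. Over all probes these were 2 and 8 for Shef6 EV, and 4 and 6 for UCI-191 EV. The Pik3r1 call was lost without any 1 of the 3 UCI-191 EV samples and without CT2A + RT-TMZ + Veh replicate 1 or 3, while the count was 2 without CT2A + RT-TMZ + Veh replicate 2 and 3 without replicate 4. With replicate 3 of RT-TMZ + Shef6 EV left out, 3 genes passed against RT-TMZ + Veh, and without CT2A + RT-TMZ + Veh replicate 2 or 4, 1 and 3 genes passed in the comparison of CT2A + RT-TMZ + Shef6 EV.

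Between tumor-bearing and tumor-free mice given UCI-191 EV, 4 of 26 genes fell and 1 rose, against 12.8% of probes. Ctss, the protease cathepsin S that can release fractalkine from the membrane, fell to 10.03 ± 0.14 in CT2A + RT-TMZ + UCI-191 EV, against 10.56 ± 0.071 in RT-TMZ + UCI-191 EV (−0.53, adjusted p = 0.0146). Nfe2l2, the transcription factor of the oxidative stress response, fell by 0.63 (adjusted p = 0.0137), Csf1r by 0.36 (adjusted p = 0.0238) and Tgfbr1 by 0.25 (adjusted p = 0.0462), and Pik3r1 rose by 0.37 (adjusted p = 0.0279). All 5 calls were lost in 1 fit over all groups and by the methods' t-test, each of which called 0 of the 26. Of the microglial markers 4 fell and of the neuronal markers 4 rose in this comparison, and their part was not tested. The count was 0 without RT-TMZ + UCI-191 EV replicate 1 or 2, 1 without its replicate 3 and 2 without CT2A + RT-TMZ + UCI-191 EV replicate 2. With Shef6 EV, none of 26 passed between CT2A + RT-TMZ + Shef6 EV and RT-TMZ + Shef6 EV, with 2 above and 1 below at an unadjusted p under 0.05, 0 by the methods' t-test after adjustment, and 0% of all probes. It was 2 without RT-TMZ + Shef6 EV replicate 3.

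The EV effect itself was tested for a difference between tumor-bearing and tumor-free mice, as an interaction term. For Shef6 EV, Tgfb1 passed among the 26 (0.81, SE 0.16, adjusted p = 0.0216), against 6.08% of all probes. Its level was 8.11 ± 0.058 in CT2A + RT-TMZ + Shef6 EV, against 7.61 ± 0.19 in CT2A + RT-TMZ + Veh, and 7.78 ± 0.053 in RT-TMZ + Shef6 EV, against 8.09 ± 0.16 in RT-TMZ + Veh. For UCI-191 EV, Pik3r1 passed (0.97, SE 0.20, adjusted p = 0.0376), against 1.85% of all probes. Median centering ended both calls, with adjusted p = 0.0690 for Tgfb1 and 0.0991 for Pik3r1, and quantile normalization ended that of Tgfb1 (0.45, adjusted p = 0.0817). Markers of other cells passed the same interaction in the same direction. For Shef6 EV they were 6 of 8 endothelial markers, such as Tie1 (1.71) and Cldn5 (1.05), and 3 of 5 astrocyte markers, such as Sox9 (0.82), and for UCI-191 EV 4 of 8 endothelial markers. Their part was not tested. The Shef6 EV count was 0 without CT2A + RT-TMZ + Shef6 EV replicate 3, RT-TMZ + Shef6 EV replicate 1 or 2 or RT-TMZ + Veh replicate 2, 3 or 4. It was 2 without CT2A + RT-TMZ + Veh replicate 2 or RT-TMZ + Veh replicate 1, 4 without RT-TMZ + Shef6 EV replicate 3 and 6 without CT2A + RT-TMZ + Veh replicate 4. The UCI-191 EV count was 0 without CT2A + RT-TMZ + UCI-191 EV replicate 2 or 3, CT2A + RT-TMZ + Veh replicate 3, any 1 RT-TMZ + UCI-191 EV replicate or RT-TMZ + Veh replicate 2, 3 or 4, and 3 without CT2A + RT-TMZ + UCI-191 EV replicate 1 or CT2A + RT-TMZ + Veh replicate 2 or 4.

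**Figure D4:**
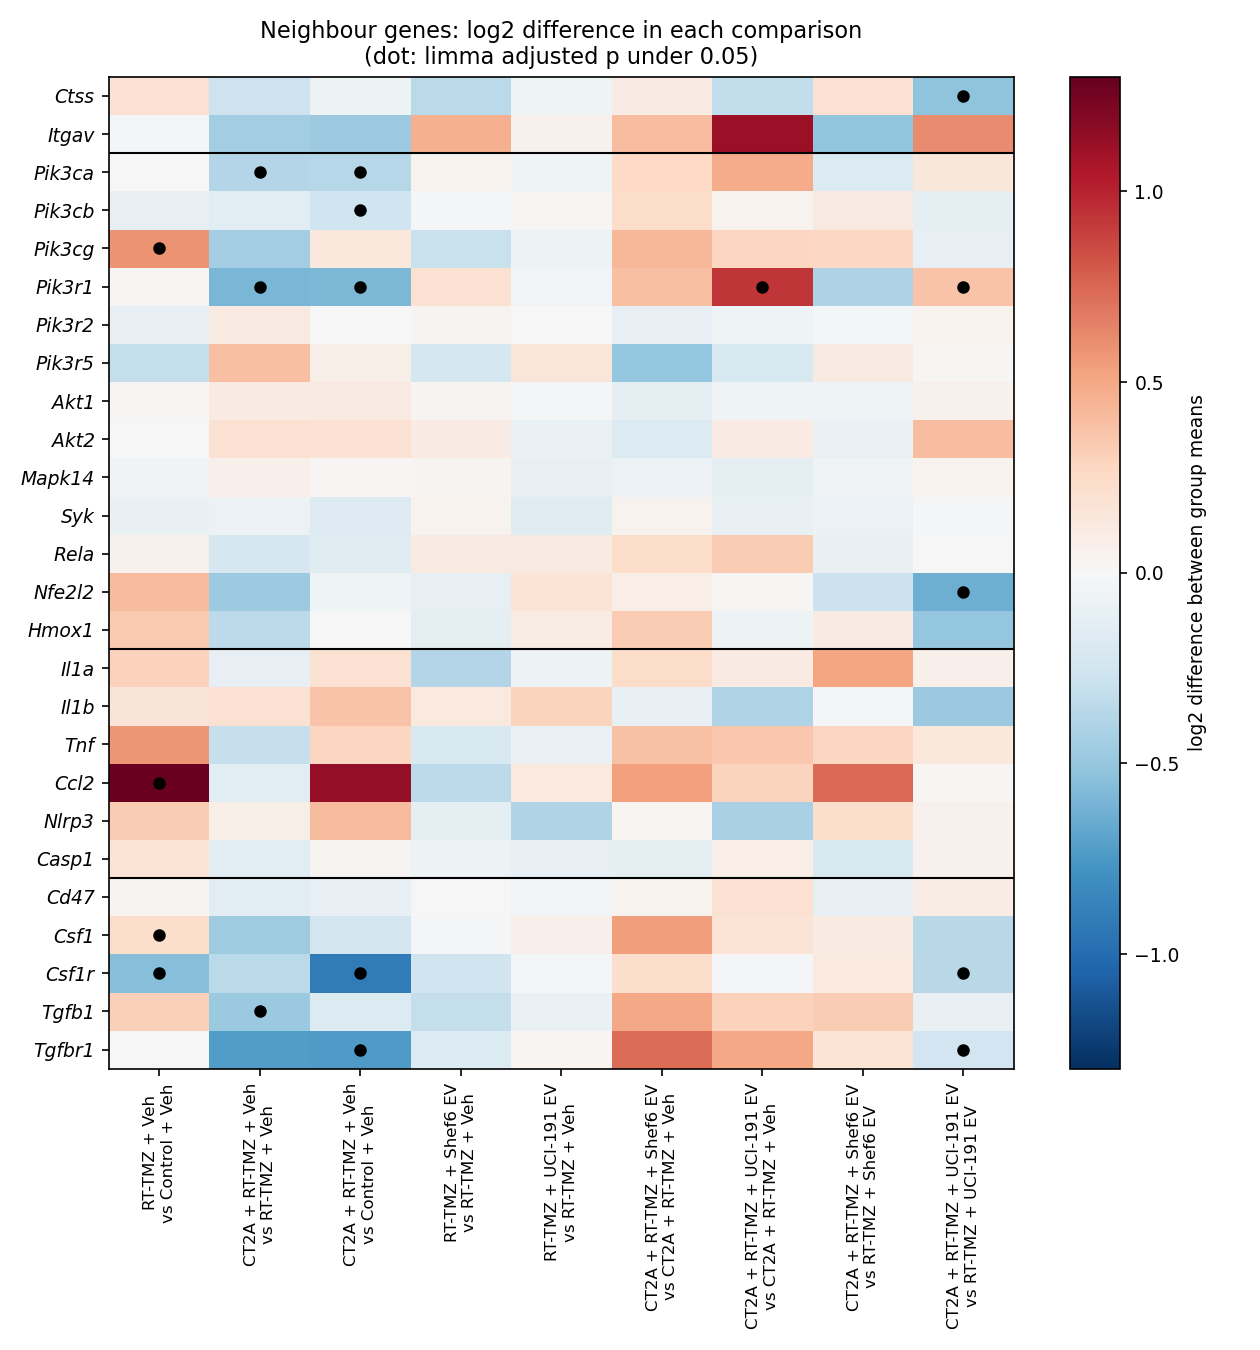
Log2 difference (color) of the 26 measured genes of the 4 lists, set apart by lines, in each of 9 comparisons, with a dot where limma's adjusted p was under 0.05. Csf1r was lower in both vehicle groups after RT-TMZ compared to Control + Veh (−0.56 and −0.91), and none of the 26 passed for either EV type in tumor-free mice.

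The genes whose levels over the 24 samples were most like that of Cx3cl1, among 625 named genes at or above background, were Map1lc3a (r = 0.90), Lingo1 (0.88), Clstn1 (0.85), Atg9a (0.85) and Fscn1 (0.84). Map1lc3a and Atg9a take part in autophagy, Lingo1 is a neuronal membrane protein of the Nogo receptor complex, Clstn1 is a neuronal cadherin-like transport adaptor and Fscn1 bundles actin. Taken as deviations from group means, the same r values were 0.81, 0.79, 0.83, 0.61 and 0.79. For Cx3cr1 the most alike were Kdm4b (r = 0.74), Ppp3ca (0.65), Gpr34 (0.63), Hpgds (0.63) and Shank3 (0.62), with 0.83, 0.73, 0.69, 0.77 and 0.74 within groups. Gpr34 is a microglial receptor, also among the microglial markers, and Hpgds a prostaglandin synthase found in microglia, while Kdm4b is a histone demethylase, Ppp3ca a calcineurin subunit and Shank3 a postsynaptic scaffold. These are descriptions across samples that share library, normalization and group.

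Whether the pair followed the cells that make it was asked from deviations within groups, which do not use the group pattern, in a family of 6 relations with two-sided permutation tests that shuffled samples within groups. Cx3cr1 followed the mean of the 10 microglial markers (r = 0.80, p = 1e-05, the smallest that the permutations can give, adjusted p = 6e-05; rho = 0.86). Without the 2 samples farthest on the marker axis r was 0.83, and without CT2A + RT-TMZ + Veh it was 0.87. Cx3cl1 followed the mean of the 15 neuronal markers (r = 0.74, p = 0.0193, adjusted p = 0.0386; rho = 0.63, p = 0.0198, adjusted p = 0.0397). It rested in part on RT-TMZ + Shef6 EV replicate 3 and CT2A + RT-TMZ + Veh replicate 2, without which r was 0.51, and r was 0.60 without CT2A + RT-TMZ + Veh. Single neuronal markers went both ways with Cx3cl1 within groups. Tbr1 (r = 0.81), Mef2c (0.78) and Gria4 (0.73) ran with it, while Gria1 (−0.78), Grin2a (−0.56) and Pnoc (−0.37) ran against it. The relation thus holds for the mean of this list and not for each neuronal gene. Cx3cr1 ran against the neuronal mean (r = −0.59, p = 0.00064, adjusted p = 0.00192; rho = −0.61, adjusted p = 0.00858; r = −0.52 without the 2 farthest samples), but this relation was 0.11 after median centering. Here too single neuronal markers went both ways within groups. Slc17a6 (r = −0.67), Mef2c (−0.63) and Gria4 (−0.60) ran against Cx3cr1, while Dlg4 (0.73), Grin2a (0.61) and Gria1 (0.49) ran with it. Cx3cl1 and Cx3cr1 did not pass with each other (r = −0.32, adjusted p = 0.146; rho = −0.29, adjusted p = 0.289; r = −0.46 without the 2 farthest samples). Neither did Cx3cl1 with the endothelial mean (r = −0.12, adjusted p = 0.849; rho = −0.02; r = 0.17 without the 2 farthest) or Cx3cr1 with the monocyte and macrophage mean (r = 0.02, adjusted p = 0.917; rho = 0.09; r = −0.16 without the 2 farthest).

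**Figure D5:**
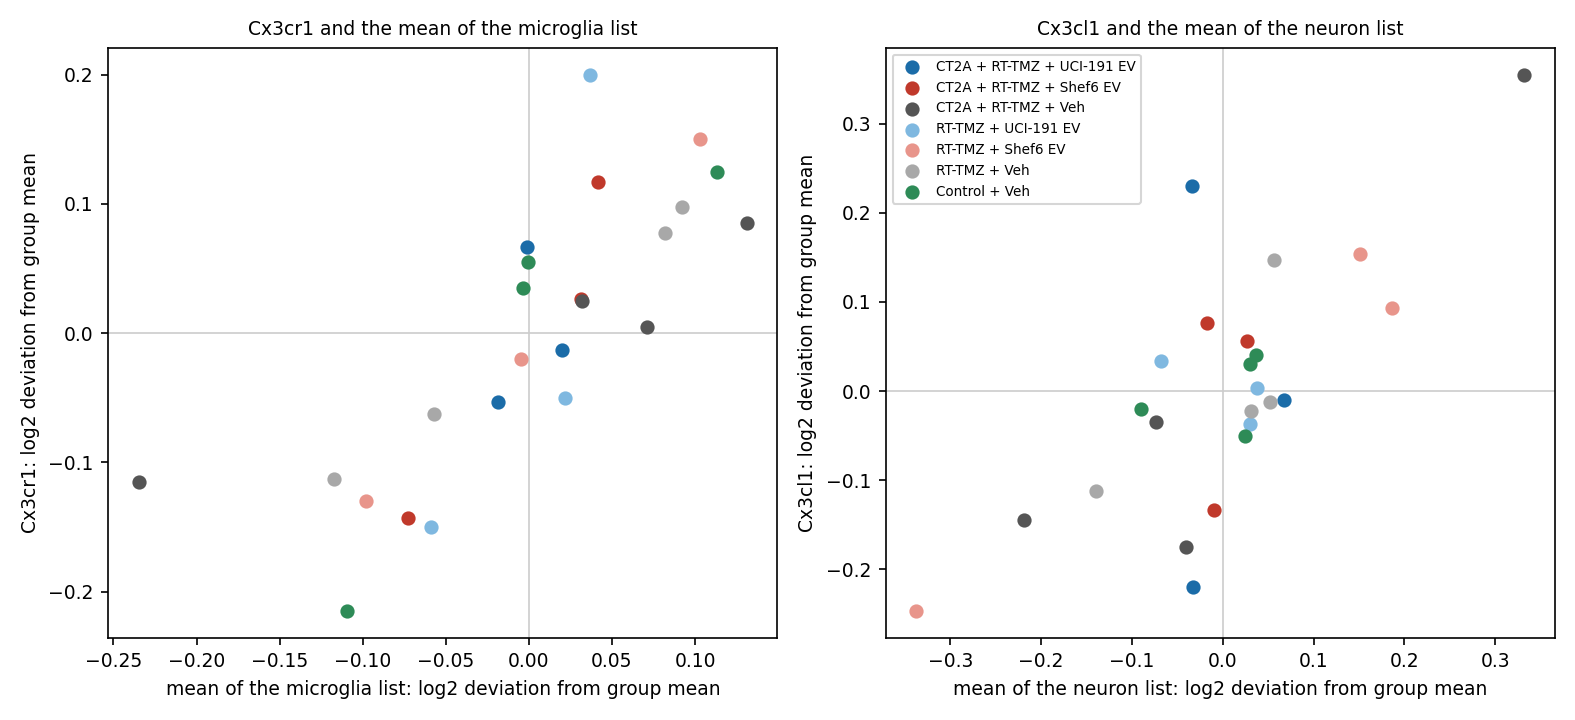
Deviation of Cx3cr1 from its group mean against that of the microglial marker mean, and of Cx3cl1 against that of the neuronal marker mean, in log2 units (points, 24 samples, colored by group). Cx3cr1 followed the microglial marker mean (r = 0.80) and Cx3cl1 the neuronal marker mean (r = 0.74), although single neuronal markers went both ways.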

How the data were processed

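Total RNA from fresh-frozen brain tissue was counted by the authors on the nCounter Mouse Neuroinflammation panel. The deposited values are log2 counts that the authors normalized to positive controls and then to 13 reference genes. Probes took gene symbols from the platform annotation: 703 have 1 symbol and 54 are unnamed here. Log2 values were used as deposited. Replicates are separate mice, and no 2 samples were duplicates (r within groups 0.965 to 0.996). The members and the gene lists were chosen with earlier results of these data known.

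Each comparison was fitted on its 2 groups with limma's moderated test and a mean trend (limma 3.58.1, R 4.3.3), with Benjamini-Hochberg adjustment over 757 probes. Permutation tests used 100000 resamples in Python 3.11.15 with numpy 2.4.6, pandas 2.3.3, scipy 1.17.1 and matplotlib 3.10.9. Scaling factors were recovered from the whole-count grid of each sample's low values, without its lowest value (tolerance 0.15). The fits, the permutation test and the recovery were tested on simulated data. Named genes are both members, the 5 genes most alike to each by r, and per list the members past the threshold, at most the 4 with the smallest p. Listed genes that were not matched were not analysed here. The methods' t-test was run without equal variances.

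Same-numbered replicates were checked for pairing by the correlation of their deviations from group means. In 9 of 30 pairs r was over 0.1 (−0.54 to 0.58), and every pair was over 0.1 in 2 comparisons, RT-TMZ + Shef6 EV against RT-TMZ + Veh and CT2A + RT-TMZ + Shef6 EV against RT-TMZ + Shef6 EV. That pairing comes from the data, since the labels give a number only. Alternatives covered scaling, pseudocount, a background filter, 1 fit over all groups, the replicate block and leaving out each library.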

Additional observations from a re-analysis of the deposited data

Results flagged for a closer look

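The effect of Shef6 EV on Tgfb1 differed between tumor-bearing and tumor-free mice by the interaction test (0.81 on the log2 scale, SE 0.16, limma adjusted p = 0.0216), and that of UCI-191 EV on Pik3r1 did so as well (0.97, SE 0.20, limma adjusted p = 0.0376). Both effects use CT2A + RT-TMZ + Veh, the group with the high scaling factors. They were 0.47 and 0.85 after median centering, which ended both calls (limma adjusted p = 0.0690 and 0.0991), and 1.21 and 1.29 on counts before scaling. Quantile normalization ended the Tgfb1 call as well (0.45, limma adjusted p = 0.0817) and kept that of Pik3r1 (0.72, limma adjusted p = 0.0423).

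In RT-TMZ + Veh, 1 sample of Tgfb1 lay far from the others (7.86, against 8.15, 8.18 and 8.18), with a gap of 0.906 of the group's range. In Control + Veh, 1 sample of Pik3cb did (10.64, against 10.58, 10.58 and 10.59), with a gap of 0.833 of the range, though the range itself is small. These were 2 of 45 groups of values examined, and chance picks about 1 in 20.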

How the results depend on the processing

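Both genes kept direction and size with the replicate block, which can move a difference only between groups of unequal size. A difference of 2 group means cannot change in 1 fit over all groups or with a background filter. A pseudocount of 20 can hardly move counts of 989 to 5405. That both genes kept direction and size in these 3 settings was thus fixed in advance. Without 1 library, 128 of 128 values stayed within the replicate spread, but some moved by over 1.5 times. Cx3cl1 in CT2A + RT-TMZ + Veh against Control + Veh was 0.12 without CT2A + RT-TMZ + Veh replicate 2. In CT2A + RT-TMZ + UCI-191 EV against CT2A + RT-TMZ + Veh it was −0.057 without that library, and −0.065 and −0.29 without CT2A + RT-TMZ + UCI-191 EV replicates 1 and 3. In RT-TMZ + Shef6 EV against RT-TMZ + Veh it was 0.12 and 0.32 without RT-TMZ + Shef6 EV replicates 2 and 3. Cx3cr1 ran from −0.09 to 0.02 in RT-TMZ + Veh against Control + Veh and was −0.21 in CT2A + RT-TMZ + Veh against Control + Veh without Control + Veh replicate 4. Without RT-TMZ + UCI-191 EV replicates 1 and 3 it was −0.21 and −0.037 in that group against RT-TMZ + Veh, and 0.22 and 0.048 in CT2A + RT-TMZ + UCI-191 EV against it.

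Scaling moved them. On counts before scaling, Cx3cl1 was −0.16 for CT2A + RT-TMZ + Veh against RT-TMZ + Veh, −0.38 against Control + Veh, −0.39 for CT2A + RT-TMZ + Shef6 EV and 0.21 for CT2A + RT-TMZ + UCI-191 EV against CT2A + RT-TMZ + Veh, and 0.15 for CT2A + RT-TMZ + UCI-191 EV against RT-TMZ + UCI-191 EV. Cx3cr1 in the same order was −0.68, −0.76, 0.55, 0.52 and −0.11, and 0.16 for CT2A + RT-TMZ + Shef6 EV against RT-TMZ + Shef6 EV. With median centering, the first 3 Cx3cl1 values were 0.67, 0.45 and −1.04 and the Cx3cr1 values 0.15, 0.075, −0.10, −0.063 and 0.28. Quantile normalization gave 0.13, 0.077, −0.047 and −0.037 for the first 4 of Cx3cr1.

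Of the 26 neighboring genes, RT-TMZ + Veh against Control + Veh gave 4 calls, 2 on counts before scaling and 2 by the methods' t-test. CT2A + RT-TMZ + Veh against RT-TMZ + Veh gave 3, then 10 in 1 fit, 21 before scaling, 0 centered, 0 without the trend, 1 quantile and 0 by t-test. CT2A + RT-TMZ + Veh against Control + Veh gave 5, then 8, 19, 3 centered and 1 by t-test, while 540 of all probes fell and 3 rose before scaling. CT2A + RT-TMZ + Shef6 EV against CT2A + RT-TMZ + Veh gave 0, then 9 in 1 fit and 11 before scaling, while 296 of all probes rose and 1 fell before scaling. CT2A + RT-TMZ + UCI-191 EV against CT2A + RT-TMZ + Veh gave 1, then 7, 12, and 0 centered, without the trend and by t-test. Before scaling, 333 of all probes rose there and 0 fell. CT2A + RT-TMZ + UCI-191 EV against RT-TMZ + UCI-191 EV gave 5, then 0 in 1 fit, 8 centered, 3 without the trend and 0 by t-test. After centering, 126 of all probes rose there and 27 fell. The Shef6 EV interaction gave 1, then 5, 11, 0 centered and 1 quantile, which was not Tgfb1. The UCI-191 EV interaction gave 1, then 3, 10, 0 centered, 0 without the trend, 2 quantile and 2 filtered. Before scaling, the Shef6 EV interaction passed above 0 for 318 of all probes and below 0 for 1. With UCI-191 EV these were 215 and 0. Counts over all probes are not given for the 1 fit, the replicate block or the fits without 1 library. Those counts thus do not set the 26 genes apart from the panel.

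With the replicate block, the counts were 1 for RT-TMZ + Veh against Control + Veh, 0 and 1 for CT2A + RT-TMZ + Veh against RT-TMZ + Veh and Control + Veh, 1 for CT2A + RT-TMZ + Shef6 EV against CT2A + RT-TMZ + Veh, 0 for CT2A + RT-TMZ + UCI-191 EV against the same vehicle group, 3 for CT2A + RT-TMZ + UCI-191 EV against RT-TMZ + UCI-191 EV and 2 for the UCI-191 EV interaction. No other count moved with it.

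Without 1 library, counts ran from 1 to 6 for RT-TMZ + Veh against Control + Veh and for CT2A + RT-TMZ + Veh against Control + Veh, 0 to 6 for CT2A + RT-TMZ + Veh against RT-TMZ + Veh, CT2A + RT-TMZ + UCI-191 EV against RT-TMZ + UCI-191 EV and the Shef6 EV interaction, 0 to 3 for RT-TMZ + Shef6 EV against RT-TMZ + Veh, both EV groups against CT2A + RT-TMZ + Veh and the UCI-191 EV interaction, and 0 to 2 for CT2A + RT-TMZ + Shef6 EV against RT-TMZ + Shef6 EV. The cause of these moves was not tested.

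Within groups, the relation of Cx3cl1 with Cx3cr1 was 0.28 after median centering, with the endothelial mean 0.11 and, before scaling, 0.18. That of Cx3cr1 with neurons was 0.11 centered and −0.30 before scaling (permutation adjusted p = 0.264), and with monocytes −0.045 centered. Without CT2A + RT-TMZ + Veh, chosen after seeing the data, Cx3cl1 with endothelial cells was 0.0075 and Cx3cr1 with monocytes −0.064. The number of mice limits precision, and cytokine genes sat near background.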
